A study of Mus musculus with 6 samples.

Results

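The genes described here are 10 antioxidant and Nrf2 target genes, chosen by name but with earlier results of these data known: Nfe2l2, Sod1, Sod2, Cat, Gpx4, Gclc, Gclm, Hmox1, Nqo1 and Txnrd1. They are 10 of the 38355 genes with a deposited count, and all 10 passed the filter on low counts that left 17120 genes for testing. RNA sequencing of polyadenylated transcripts was performed on whole cortical hemispheres of untreated wild-type C57BL/6 mice, from 3 animals aged 6 months and 3 animals aged 16 months. All samples share the strain, the tissue and the anesthesia with chloral hydrate. The ages used here are those of the titles, and the housing protocol names 3 months in place of 6. The question asked was which genes differ between young and aged cortex. Because whole tissue holds neurons, glia, vessels and blood, fewer cells of a type and less RNA per cell cannot be told apart in these values.

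Nrf2, the transcription factor encoded by Nfe2l2, is the main inducer of antioxidant and detoxifying enzymes. In unstressed cells the adaptor Keap1 holds Nrf2 at a Cul3 ubiquitin ligase, which leads to its degradation, and oxidants or electrophiles that modify Keap1 let Nrf2 accumulate in the nucleus. There it pairs with small Maf proteins and binds the antioxidant response element in front of genes such as Nqo1, Hmox1, Gclc, Gclm and Txnrd1. In the brain this response is known to be strong in astrocytes, which supply neurons with precursors of glutathione. Superoxide dismutases, catalase and Gpx4 form the enzymatic defense against superoxide, hydrogen peroxide and lipid peroxides, and their basal levels depend on other regulators as well.

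The core of the antioxidant response element was searched as the letters TGACNNNGC on both strands of the RefSeq promoter windows of GRCm38, each with 250 bases before and 50 bases after a transcription start. Windows were available for 8 of the 10 genes (13 windows), not for Gclc and Hmox1. A match was found in 4 of these 13 windows, in 1 window each of Nfe2l2, Gclm, Txnrd1 and Sod1, and in 12.4% of all 32851 windows of the same length. By gene, 4 of 8 had a match in any window, and 14.0% of all 27025 genes. The 4 stretches are shown because they are the only places in the windows of these genes where the searched letters occur. Other forms of the element were not searched. The match is in capitals, and each stretch is read 5′ to 3′ on the strand that carries it.
Nfe2l2, minus strand, chr2:75704884-75704913, match from 240 bases before the start: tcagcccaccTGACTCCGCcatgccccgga
Gclm, minus strand, chr3:122245413-122245442, match from 134 bases before the start: ctcgtgagagtTGACGGTGCgcccgggagc
Txnrd1, the second of its 3 annotated starts, minus strand, chr10:82859104-82859133, match from 92 bases before the start: ccgtgtcagaaTGACAAAGCaaaaatccag
Sod1, minus strand, chr16:90220696-90220725, match from 56 bases before the start: aggcctgagtcTGACCACGCccaccttggc
For Gclm, Txnrd1 and Sod1 this is the strand opposite to the gene. The search describes letters only, and nothing about binding of Nrf2 in these samples.

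Neither the factor nor any of its 9 companions passed the test between the ages. Counts were scaled to counts per 1000000 (CPM) with the TMM method and compared with edgeR's quasi-likelihood test, with P-values adjusted over all 17120 tested genes by the Benjamini-Hochberg procedure. At an adjusted P under 0.05, 0 of the 10 genes were called, where 1.67% of all tested genes were called. At an unadjusted P under 0.05, 2 of the 10 genes (Cat and Gpx4) passed, where 17.4% of all tested genes did. DESeq2's Wald test called 1 of the 10, Cat, where it called 3.07% of its tested genes. With the replicate number as a block, edgeR called Cat alone, where it called 4.57%, but the numbers were not taken as pairs. No gene of the 10 was called with DESeq2's size factors (1.69% of all tested genes), upper quartile normalization (1.70%), no filter on low counts (2.35%), at least 10 counts in every sample (1.67%), or without young replicate 1 (0.310%), 2 (0.327%) or 3 (0.280%) or aged replicate 3 (0.298%). Cat and Gpx4 were called without aged replicate 1 (5.77% of all tested genes), and Cat without aged replicate 2 (12.9%). The samples of the ages did not overlap in 4 of the 10 genes, higher at 16 months in Cat and Nfe2l2 and lower in Sod1 and Gpx4, and they did not overlap in 23.7% of all tested genes. The log2 fold changes (log2fc, 16 over 6 months throughout) lay between −0.16 and 0.22 with a median of 0.033, beside a median of 0.0014 over all tested genes. The smallest absolute log2fc that this edgeR fit, without block or offsets, called in any gene was 0.23.

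**Figure D1:**
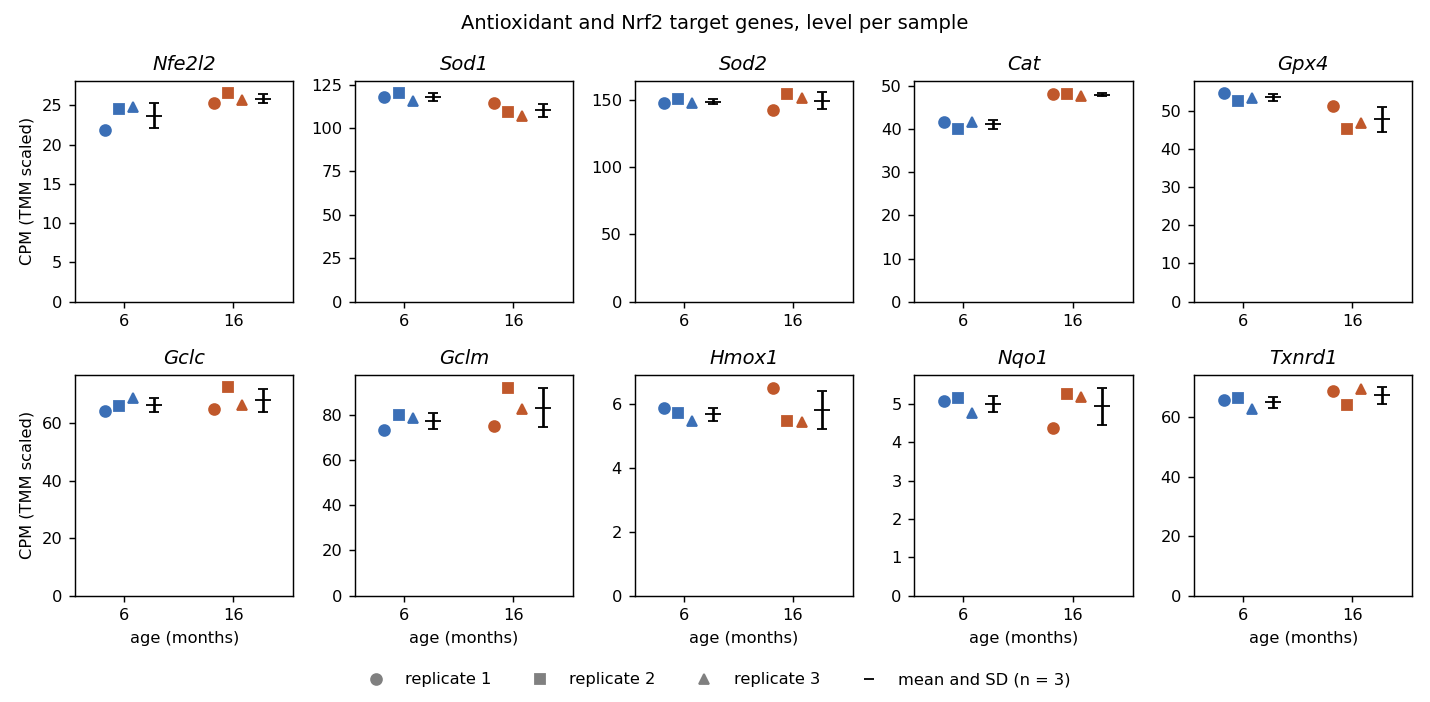
Level of each of the 10 genes in CPM (vertical axes, from 0) in the 3 samples of 6 months (blue) and the 3 samples of 16 months (orange), with the mean and SD of each age in black. The samples of the ages lie apart in Cat (40.0 to 41.8 against 47.7 to 48.3 CPM), Nfe2l2, Sod1 and Gpx4, and overlap in the other genes.

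Catalase, encoded by Cat, breaks down hydrogen peroxide in peroxisomes. Its gene occupies bases 103453849 to 103485160 of chromosome 2 (GRCm38, minus strand). It has 13 merged exons, no exon bases shared with another gene and no near-identical copy. Its level was 41.8, 40.0 and 41.7 CPM in replicates 1, 2 and 3 at 6 months and 48.3, 48.1 and 47.7 CPM at 16 months. The 3 aged samples were nearly equal to each other and each lay above all 3 young samples. The mean was 41.2 ± 1.04 CPM at 6 months and 48.0 ± 0.313 CPM at 16 months (SD, n = 3 each), with a log2fc of 0.22 (SE 0.051, 95% interval 0.11 to 0.34, adjusted P = 0.0685), that is 16.6% higher with an interval from 7.73% to 26.2%. Cat had the smallest P-value of the 10 genes and missed the threshold. With DESeq2's Wald test its adjusted P was 0.0394 at a log2fc of 0.22, and the range over all alternatives was 0.000501 to 0.312. Without aged replicate 1 or 2 it was 0.0253 or 0.0216 (edgeR), and without any of the other 4 samples Cat did not pass. The fold change was almost the same in every fit, from 0.20 to 0.23 on the log2 scale, and the call depended on the fit.

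Red blood cells, which are rich in catalase, left transcripts in the same samples. All 5 of their markers (Hba-a1, Hba-a2, Hbb-bs, Hbb-bt and Alas2) were higher in each aged sample than in each young sample, and Hbb-bs and Hbb-bt passed the test. Their summed level was 27.3 to 30.8 CPM at 6 months and 44.9 to 50.3 CPM at 16 months, with a median log2fc of 0.66. Whether this difference plays a part in that of Cat was not tested.

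The superoxide dismutases convert superoxide to hydrogen peroxide, Sod1 with copper and zinc in the cytosol and Sod2 with manganese in mitochondria. Sod1 had 117.8, 120.4 and 115.5 CPM at 6 months and 114.3, 109.5 and 107.2 CPM at 16 months. Every aged sample was below every young sample, but the gap between the nearest ones, young replicate 3 and aged replicate 1, was narrow. The log2fc of Sod1 was −0.095 (SE 0.051, 95% interval −0.21 to 0.019, adjusted P = 0.372). Sod2 had 147.7, 150.8 and 147.6 CPM at 6 months and 142.3, 154.5 and 151.0 CPM at 16 months. The aged samples lay on both sides of the young ones, and the log2fc of 0.0053 had a 95% interval from −0.11 to 0.12 (adjusted P = 0.970). For Sod2, a difference of more than 8.79% upward or 7.39% downward lies outside that interval. Sod1, on chromosome 16 from 90220754 to 90226329, shares 72.5% of its longest protein-coding transcript with the pseudogene Gm8566 at 97% identity or more, and Gm8566 had between 4 and 9 counts per sample, beside 3431 to 5523 for Sod1. Sod2, on chromosome 17 from 13006846 to 13040063, has no such copy.

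Gpx4 encodes the selenium-containing glutathione peroxidase that reduces lipid peroxides in membranes and thereby holds off ferroptosis. Its level was 54.5, 52.6 and 53.2 CPM at 6 months and 51.3, 45.1 and 46.7 CPM at 16 months. All aged samples were lower than all young samples, with aged replicate 1 nearest to them. The mean was 53.4 ± 0.972 CPM in young and 47.7 ± 3.21 CPM in aged cortex (SD, n = 3 each), for a log2fc of −0.16 (SE 0.061, 95% interval −0.30 to −0.029, adjusted P = 0.204). Without aged replicate 1 the log2fc was −0.22 and passed the test with an adjusted P of 0.0225. Gpx4 lies on chromosome 10 from 80047166 to 80056439, and 73.7% of its transcript is nearly identical to the pseudogene Gpx4-ps2. This pseudogene is not among the genes with a deposited count, so that the counts of Gpx4 are uncertain to an unknown extent.

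Glutathione is made in a first, rate-limiting step by glutamate-cysteine ligase, whose catalytic subunit is encoded by Gclc and whose modifier subunit is encoded by Gclm. Gclc had 64.1, 66.0 and 68.9 CPM at 6 months and 64.9, 72.6 and 66.2 CPM at 16 months (log2fc 0.033, SE 0.060, 95% interval −0.10 to 0.17, adjusted P = 0.816). Only aged replicate 2 lay above the young range. Gclm had 73.3, 79.9 and 78.5 CPM at 6 months and 74.9, 91.9 and 82.6 CPM at 16 months (log2fc 0.11, SE 0.076, 95% interval −0.063 to 0.27, adjusted P = 0.512). Again aged replicate 2 was the highest sample, and aged replicate 1 lay within the young range. The log2fc of Gclm was 0.029 without aged replicate 2, 0.069 without young replicate 1 and 0.18 without aged replicate 1, and it passed the test in none of these fits. Gclc lies on chromosome 9 from 77754535 to 77794485. Gclm lies on chromosome 3 from 122245557 to 122270732 and shares 4.70% of its exon bases with Gm17494 and Gm6061, which had 7 to 17 and 0 counts per sample.

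Hmox1 and Nqo1, often used as readouts of Nrf2 activity, were the least abundant of the 10 genes. Hmox1 encodes the inducible heme oxygenase, which opens heme to biliverdin, iron and carbon monoxide, and Nqo1 encodes a quinone reductase. Hmox1 had 5.87, 5.73 and 5.46 CPM at 6 months and 6.52, 5.49 and 5.45 CPM at 16 months, from 172 to 275 counts per sample. One aged sample, replicate 1, was above all the others, replicate 2 lay within the young range, and replicate 3 just under it. Nqo1 had 5.08, 5.17 and 4.77 CPM at 6 months and 4.37, 5.26 and 5.18 CPM at 16 months, from 145 to 238 counts. Here aged replicate 1 was the lowest sample, the opposite of its place in Hmox1. The log2fc was 0.033 for Hmox1 (SE 0.095, 95% interval −0.18 to 0.25, adjusted P = 0.894) and −0.017 for Nqo1 (SE 0.098, 95% interval −0.24 to 0.20, adjusted P = 0.950). These are the widest intervals of the 10 genes, and changes of up to 18.6% in Hmox1 or 15.1% in Nqo1 remained within them. Both genes lie on chromosome 8, Hmox1 from 75093621 to 75100589 and Nqo1 from 107388225 to 107403206.

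Txnrd1 encodes the cytosolic thioredoxin reductase, a selenoprotein that keeps thioredoxin reduced. It had 65.8, 66.2 and 62.7 CPM at 6 months and 68.6, 64.1 and 69.3 CPM at 16 months (log2fc 0.053, SE 0.055, 95% interval −0.069 to 0.17, adjusted P = 0.669). Aged replicate 2 lay within the young range and the other aged samples above it. Leaving out 1 sample gave Txnrd1 a log2fc from 0.029 (without young replicate 3) to 0.087 (without aged replicate 2). Nfe2l2 itself had 21.9, 24.5 and 24.7 CPM at 6 months and 25.4, 26.5 and 25.7 CPM at 16 months. Its aged samples were all above the young ones, and young replicate 1 was lower than the rest. The mean of Nfe2l2 was 23.7 ± 1.58 CPM at 6 months and 25.9 ± 0.603 CPM at 16 months (SD, n = 3 each), with a log2fc of 0.13 (SE 0.066, 95% interval −0.019 to 0.27, adjusted P = 0.3498). Without young replicate 1 its log2fc was 0.071. Txnrd1 lies on chromosome 10 from 82833951 to 82897712 and Nfe2l2 on chromosome 2 from 75675513 to 75704641.

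**Figure D2:**
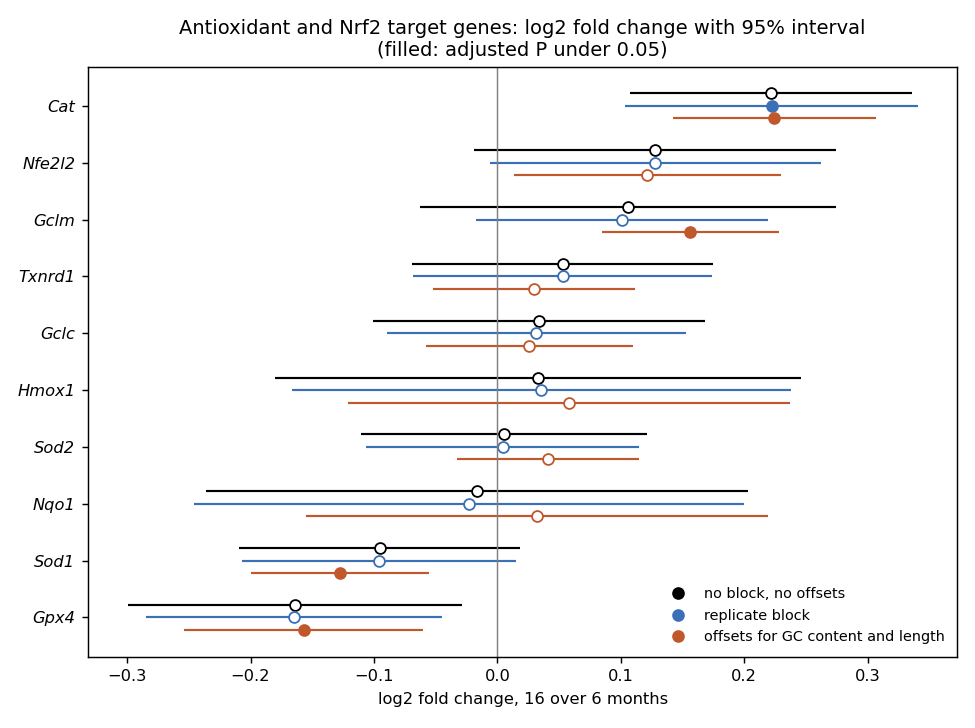
Log2 fold change (16 over 6 months, horizontal axis) of the 10 genes with 95% intervals, from edgeR without a block or offsets (black), with the replicate number as a block (blue) and with offsets for GC content and length (orange). Filled points have an adjusted P under 0.05, which is no gene in black, Cat in blue, and Cat, Gclm, Sod1 and Gpx4 in orange. The replicate numbers were not taken as pairs.

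The spread among the aged samples followed the base composition of the genes. Across 16904 genes, the deviation of a sample from the mean of its age correlated with the GC content of the transcript with r = 0.599 in aged replicate 1 and r = −0.591 in aged replicate 2, and with r between −0.129 and 0.161 in the other 4 samples, where the genes of a sample share one library and are not independent. The deviations within an age balance out for each gene, so that the values of aged replicates 1 and 2 are not separate results. They do not show which of these samples departs. Among the 10 genes, aged replicate 1 was the lowest and aged replicate 2 the highest aged sample in each of the 5 with the lowest GC content (Gclm, Sod2, Nqo1, Nfe2l2 and Gclc, 42.1% to 47.7% GC). In 4 of the 5 others (Cat, Sod1, Hmox1 and Gpx4, 48.7% to 60.2% GC) aged replicate 1 was the highest, and Txnrd1 (49.7% GC) had aged replicate 3 on top. Gclm at 42.1% GC stood at −0.15 in aged replicate 1 and 0.15 in aged replicate 2 (log2, relative to the aged mean), and Gpx4 at 60.2% GC stood at 0.11 and −0.078. In Cat, at 48.7% GC and near the median of 50.1% of all tested genes, no aged sample deviated by more than 0.010. The SD on the log2 scale was larger at 16 months than at 6 months in 8 of the 10 genes, all except Cat and Nfe2l2, and in 75.5% of all tested genes.

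**Figure D3:**
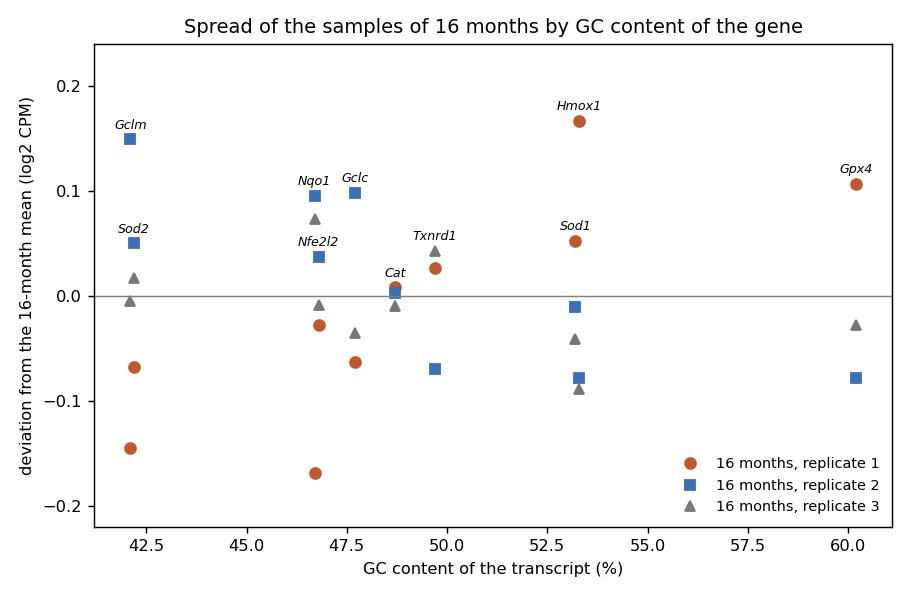
Deviation of each of the 3 aged samples from their mean (vertical axis, log2 CPM) against the GC content of the transcript (horizontal axis, percent) for the 10 genes. Aged replicate 1 lies under the line in the 5 genes up to 47.7% GC and above it in the 5 genes from 48.7% on, and aged replicate 2 lies above it in the former genes and in Cat and under it from 49.7% on.

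When trends with GC content and with merged exon length were removed with offsets, 4 of the 10 genes were called, where 15.4% of all tested genes were called in that fit. The 4 genes were Cat (log2fc 0.22, adjusted P = 0.00142), Gclm (0.16, adjusted P = 0.00632), Sod1 (−0.13, adjusted P = 0.0204) and Gpx4 (−0.16, adjusted P = 0.0300). In that fit Cat and Gclm were higher, and Sod1 and Gpx4 lower, at 16 months. The intervals of these 4 genes became narrower, and none changed its direction. With offsets and the replicate block together the same 4 genes were called, where 21.0% of all tested genes were. The offsets are estimated from the same samples and raise the share of called genes in the whole table, so that the calls with and without them are given side by side.

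Levels of different genes were compared only per length, as CPM per kilobase of merged exons. At 6 months the order was Gpx4 (31.0 ± 0.564), Sod1 (29.7 ± 0.614), Gclc (17.6 ± 0.642), Cat (15.8 ± 0.400), Sod2 (14.9 ± 0.180), Gclm (12.3 ± 0.554), Txnrd1 (9.16 ± 0.267), Nfe2l2 (6.25 ± 0.417), Hmox1 (3.25 ± 0.119) and Nqo1 (3.22 ± 0.135), with the SD over 3 samples. Only the samples of Hmox1 and Nqo1, the last in the order, overlapped between neighbors at this age. At 16 months Sod1 and Gpx4 overlapped, as did Cat (18.4 ± 0.120) and Gclc (18.0 ± 1.09), Sod2 and Gclm, and Hmox1 and Nqo1. The merged exons of Sod1 span 3970 bases because of an annotated transcript that keeps introns, whereas its longest protein-coding transcript has 641 bases. Per kilobase of the longest protein-coding transcript, a length chosen after seeing the data, Sod1 came first at 184 ± 3.81, followed by Gpx4 at 53.7 ± 0.977 and Sod2 at 25.4 ± 0.307. Gclc, Txnrd1 (17.9 ± 0.523), Cat (15.8 ± 0.400) and Gclm followed in that order, while Nfe2l2, Hmox1 and Nqo1 kept the last places.

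Beyond these 10, 103 other genes of the pathway were listed, of which 96 were tested and 7 were filtered out for low counts (Gpx2, Gpx5, Gsta1, Gsta2, Gstm3, Gstp2 and Mgst2). Of the 96, 1 rose and 1 fell, where 0.783% of all tested genes rose and 0.888% fell, and 94 did not pass. The ages did not overlap in 30 of the 96 (12 higher and 18 lower at 16 months), beside 23.7% of all tested genes. The median log2fc was 0.0069, and the summed level of the list was 6668 to 6783 CPM at 6 months and 6545 to 6864 CPM at 16 months.

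Nfe2l3, a factor related to Nrf2, was the gene that fell. It had 6.81, 7.73 and 6.77 CPM at 6 months and 4.95, 5.39 and 5.42 CPM at 16 months, with a log2fc of −0.43 (SE 0.090, adjusted P = 0.0471). Each aged sample was below each young sample. The gene that rose was Sesn3, one of the sestrins, which are stress-responsive proteins linked to peroxiredoxin recycling and to inhibition of mTORC1. Its level was 55.0, 56.97 and 56.9 CPM at 6 months and 64.9, 67.6 and 66.7 CPM at 16 months, with a log2fc of 0.24 (SE 0.050, adjusted P = 0.0479). Both lay close to the threshold. Without young replicate 1, 2 or 3 or aged replicate 3, neither passed (adjusted P from 0.153 to 0.249), and with upper quartile normalization Sesn3 did not (adjusted P = 0.0614).

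Of the 13 regulators and partners of Nrf2, 12 did not pass in edgeR without block or offsets, the fit used in this paragraph unless another is named. With offsets for GC content and length, 11 of the 96 genes were called, where 15.4% of all tested genes were. Among them were Cul3 (log2fc 0.16, adjusted P = 0.00136), higher at 16 months, and Blvra (−0.18, adjusted P = 0.0263), lower. Keap1, the adaptor that holds Nrf2, had 47.9 to 49.6 CPM at 6 months and 45.7 to 57.3 CPM at 16 months, with a log2fc of 0.055 (SE 0.081). The largest absolute log2fc of the regulators was that of Maff, at −0.61 (SE 0.19, edgeR, adjusted P = 0.148). Maff had 25 to 76 counts per sample, and every aged sample was lower. It was called only with offsets and block together (−0.64) and without aged replicate 2 (−0.81). Sesn3 was the only one of 19 genes of the thioredoxin and peroxiredoxin system to pass. In the other role groups no gene passed without block or offsets, and the gene with the largest absolute log2fc of each is given here. It was 0.18 for Sod3, the extracellular superoxide dismutase, among 2 genes of superoxide dismutation, and −0.29 for Gpx6 among 5 tested glutathione peroxidases. It was 0.35 for Ggt1, which cleaves extracellular glutathione, among 12 genes of glutathione synthesis and recycling. Among 18 tested glutathione S-transferases it was −0.68 for Gstm2, which had 13 to 51 counts per sample and belongs to a family of closely similar genes that can exchange reads. For heme and iron handling (8 genes) it was −0.19 for Blvra, the biliverdin reductase that acts after Hmox1, for NADPH supply (8 genes) −0.072 for Idh1, and for quinone, carbonyl and xenobiotic enzymes (11 genes) 0.29 for Akr1b8 at 16 to 31 counts per sample. Single samples moved several of these values, to between −0.59 (without aged replicate 3) and −0.10 (without aged replicate 2) for Gpx6, between 0.15 (without young replicate 2, which had 20 counts) and 0.56 (without young replicate 1) for Ggt1, between −0.87 (without aged replicate 1) and −0.46 (without aged replicate 3) for Gstm2, and between −0.13 (without aged replicate 2) and −0.020 (without aged replicate 1) for Idh1, none of which passed.

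**Figure D4:**
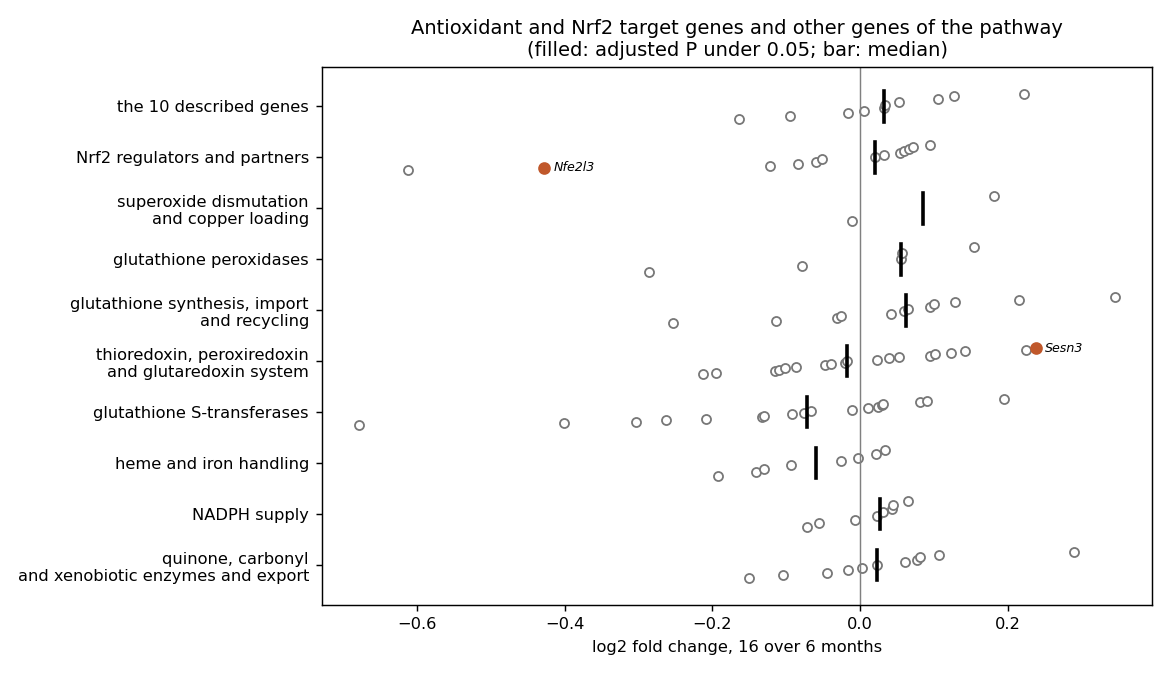
Log2 fold change (16 over 6 months, horizontal axis) of the 10 genes and of the 96 other tested genes of the pathway by role group, 1 point per gene, with a bar at the median of each group. Only Nfe2l3 and Sesn3 are filled, at an adjusted P under 0.05, and the medians lie between −0.071 and 0.085.

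Slc7a11, which imports cystine for glutathione synthesis and is a well-known Nrf2 target, was looked at after its values were seen, because several alternatives called it. It had 93.9, 96.4 and 94.1 CPM at 6 months and 71.3, 88.3 and 79.0 CPM at 16 months, so that every aged sample was lower. Its log2fc was −0.25 (SE 0.074, adjusted P = 0.123), and with offsets for GC content and length −0.21 (adjusted P = 0.000378). Slc7a11 was therefore lower in the same fit in which Gclm was higher. Slc3a2, of the same role group as Slc7a11, was also called higher in that fit (log2fc 0.10, edgeR, adjusted P = 0.0357). Gstt1, a glutathione S-transferase, was called in more alternatives than Slc7a11 and was lower at 16 months in each of them. With offsets for GC content and length its log2fc was −0.36 (edgeR, adjusted P = 0.0070), and with DESeq2's Wald test −0.40 (adjusted P = 0.0289).

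All 8 neuronal and all 8 astrocytic markers were detected, which does not tell the cortex from other brain regions. Astrocytic markers summed to 6533 to 6875 CPM at 6 months and 6990 to 7685 CPM at 16 months, of which Gfap fell (log2fc −0.47) and the other 7 did not pass. Neuronal, oligodendrocytic, microglial and endothelial markers had 8 tested genes each, of which 0, 1 (Mal, higher), 1 (Aif1, lower) and 0 passed. Of 6 markers of oligodendrocyte precursors 1 rose (Gpr17). Of markers of regions next to the cortex, 4 of 7 for the thalamus (Prkcd, Shox2, Tcf7l2 and Plekhg1), 4 of 6 for the dentate gyrus (Dsp, Lct, C1ql2 and Pdzd2) and 1 of 6 tested for the choroid plexus (Ttr) rose, where 0.783% of all tested genes rose, and the others did not pass. The summed thalamic level was 94.5 to 98.8 CPM at 6 months and 119.9 to 132.2 CPM at 16 months. For the dentate gyrus the sums were 127.4 to 133.7 and 172.1 to 183.5 CPM. For the choroid plexus they were 16.8 to 17.8 and 25.2 to 28.2 CPM. The log2fc was above 0 in all 7 thalamic, all 6 dentate and 5 of 6 tested choroid plexus markers. The largest thalamic value was 4.06. The marker lists were written down with earlier results of these data known, so that the shares of called markers are not a test. What part these cells and regions play in the values of the 10 genes was not tested.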

How the data were processed

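RNA of 6 cortical hemispheres (3 per age, n = 3 brains each) was sequenced in pairs of reads. Per the paper's methods, the authors trimmed the reads, aligned them to mm10 with STAR and counted them per Ensembl gene with HTSeq, whose summary lines end each file. The submitters' processing notes name CASAVA 1.8.2, STAR 2.3.0e and featureCounts 1.5.0-p1 instead, and the strand setting is not given in the sources used here. The deposited values are raw counts, between 29797253 and 46519280 per sample. A gene at 3 counts lies at 0.0640 to 0.100 CPM, for counting error only.

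Of 38355 gene IDs, 36602 matched the GENCODE annotation of GRCm38. edgeR 4.0.16 (R 4.3.3) was used with filterByExpr, TMM and the quasi-likelihood test without covariates. Intervals are 95% and come from the quasi-likelihood F. DESeq2 1.42.0, other normalizations and filters, a replicate block, offsets for GC content and length (20 bins) and leaving out each sample were the alternatives. Near-identical copies were searched with blastn 2.17.0 (97% identity over 100 bases), and figures were drawn with matplotlib 3.10.9. The tests were also run on simulated counts. These held no trend with GC content or length and no replicate effect, so that they cannot show how the offsets or the block handle such effects. No duplicate library was found.

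The 10 genes and the lists were chosen with earlier results of these data known. Named are the 10 genes, called pathway genes (in a group without one, the largest log2fc) and called markers. Keap1, Cul3, Maff, Slc3a2, Slc7a11 and Gstt1 were added after their values were seen.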

Additional observations from a re-analysis of the deposited data

How the results depend on the processing

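With 3 samples per age, edgeR without block or offsets called no difference under 0.23 on the log2 scale, and the 2 genes near 5 CPM had the widest intervals. The 10 genes had 0 calls, and 1 with DESeq2's Wald test, 1 with the replicate block, 4 with offsets for GC content and length, 4 with offsets and block, and 0 to 2 when a sample was left out (2 without aged replicate 1, Cat and Gpx4, and 1 without aged replicate 2, Cat). The other pathway genes had 2 calls, and 1 with upper quartile normalization, 4 without a filter on low counts, 5 with the block, 11 with offsets, 15 with both, and 0 to 10 when a sample was left out. All tested genes had 286 calls, and 648 without a filter, 469 with DESeq2's Wald test, 783 with the block (4.57%), 2637 with offsets, 3597 with both, and 48 to 2212 when a sample was left out, the highest without aged replicate 2 and 987 without aged replicate 1. Markers of cell types and regions had 15 calls, and 23 with DESeq2's Wald test, 24 with the block, 39 with offsets, 44 with both, and 8 to 31 when a sample was left out.

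Of the refitted log2 fold changes of the 10 genes, 118 kept direction and call, 13 gained a call and 9 changed sign. The sign changed for Sod2 with upper quartile normalization (−0.0094) and without aged replicate 2 or 3 (−0.020 and −0.0030), for Gclc without aged replicate 2 (−0.017), for Hmox1 without aged replicate 1 (−0.057), and for Nqo1 with offsets (0.032), offsets and block (0.029), without young replicate 2 (0.0039) and without aged replicate 1 (0.065). Leaving out a sample gave −0.020 to 0.039 for Sod2, −0.017 to 0.065 for Gclc, −0.057 to 0.079 for Hmox1 and −0.062 to 0.065 for Nqo1. None of these values passed the test, and the cause was not tested.

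The ages share replicate numbers, but same-numbered samples are different mice, so that the numbers were not taken as pairs. Deviations of same-numbered samples correlated with r = 0.180, 0.0958 and 0.0351 across genes. Aged replicate 3 correlated with young replicate 2 at r = 0.0379, close to its value with young replicate 3. With the replicate block, Cat had a log2fc of 0.22 and an adjusted P of 0.0402 (edgeR), and no other of the 10 genes was called.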
